A study of Mus musculus with 6 samples.

Results

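Acvr2b, E2f1, Ppp1r14b, Unc13d and Mafg are 5 of the 5538 genes with values in a table of RNA from the mouse midbrain around the oculomotor nucleus. They were picked by name because each had more transcripts in all 3 libraries of ribosome-bound RNA (IP) than in all 3 libraries of tissue RNA (Input). That separation is how the genes were chosen, so their IP and Input values are given as a description, with no test. All libraries came from C57BL/6 mice in which the Fos promoter drives CreER, a Cre recombinase that works only in the presence of 4-OHT, and in which Cre switches on the ribosomal protein L10a fused to eGFP. Every mouse was kept awake for 6 hr and then slept for 3 hr, with 4-OHT given just before one of these phases, and the series text names the neurons tagged in recovery sleep. The labels of single libraries do not say which phase was tagged, and give no age. Each of the 3 repeats pooled 4 to 5 mice, IP is RNA pulled down with antibodies to eGFP, and Input is read here as the RNA before that step. The tag marks cells in which the Fos promoter was active and is not tied to a cell type. Values are TPM, which scale each gene's reads by its transcript length and by the library's total, and the read depth behind them is unknown.

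The genes have separate roles. Acvr2b encodes activin receptor type IIB, a kinase at the cell surface that binds activins, myostatin and related ligands and signals through SMAD proteins. E2f1 encodes a transcription factor that switches on genes of DNA replication when it is released from the retinoblastoma protein. Ppp1r14b encodes a small inhibitor of protein phosphatase 1, the enzyme that among other tasks removes phosphate from myosin. Unc13d encodes a member of the Munc13 family, which readies vesicles for fusion, and is known best for granule release by blood cells, where it works with RAB27A. Mafg encodes a small MAF protein, which binds DNA as a partner of NRF2, BACH1 and related factors at antioxidant genes.

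Sequence near the starts of these genes is shown because all 5 were higher in IP and the window before a start is where a common motif would be looked for. RefSeq windows of 300 bases on build GRCm38.p6 were matched for Acvr2b, E2f1, Ppp1r14b and Mafg. Unc13d had no entry. The E2f1 window lies inside the gene as annotated by GENCODE and is not printed. For the other three, the bases before the first GENCODE start are printed 5′ to 3′ in lower case on the strand of the gene, with the match to a searched motif in capitals. Acvr2b is on the plus strand (chr9:119401928-119402117), Ppp1r14b on the plus strand (chr19:6974798-6974967) and Mafg on the minus strand (chr11:120633601-120633797).
Acvr2b: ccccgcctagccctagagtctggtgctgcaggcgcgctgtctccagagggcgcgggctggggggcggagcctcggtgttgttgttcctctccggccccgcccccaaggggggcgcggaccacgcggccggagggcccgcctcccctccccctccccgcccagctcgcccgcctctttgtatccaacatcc
Ppp1r14b: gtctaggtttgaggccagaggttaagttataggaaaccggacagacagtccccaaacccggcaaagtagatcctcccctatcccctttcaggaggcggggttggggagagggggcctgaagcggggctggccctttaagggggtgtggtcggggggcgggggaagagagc
Mafg: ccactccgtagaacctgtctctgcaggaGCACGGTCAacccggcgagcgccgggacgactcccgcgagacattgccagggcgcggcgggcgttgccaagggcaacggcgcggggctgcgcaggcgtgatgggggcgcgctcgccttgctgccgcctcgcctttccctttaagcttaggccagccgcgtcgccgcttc

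The motifs were searched on both strands of the 4 whole windows. They were 3 forms of the E2F site (TTTCCCGC, TTTGGCGC and TTTCGCGC), the core of the antioxidant response element bound by small MAF dimers (TGACNNNGC), the AP-1 site of FOS and JUN (TGACTCA), the cyclic AMP response element (TGACGTCA) and a palindromic SMAD site (GTCTAGAC). Mafg held 1 match, to the antioxidant core, which 12.4% of all 32851 RefSeq windows also hold. The other three windows held no match to these letters. The motifs other than the antioxidant core occur in 0.213% (SMAD) to 5.20% (AP-1) of all windows, so their absence from 4 windows says little. The 4 windows were rich in G and C, at 73.3% for Acvr2b, 77.3% for E2f1, 69.3% for Ppp1r14b and 69.7% for Mafg, against a median of 52.7% over all windows. Those windows are not limited to the 5538 listed genes, and the listed genes alone were not compared.

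A second sequence shows what limits the value of Ppp1r14b. Of the 50-base windows along its longest GENCODE transcript, 37.6% occur unchanged in Gm7332, a processed pseudogene on chromosome 5 (9260935 to 9261388, GRCm38). The coding sequences line up over all 444 bases with 2 mismatches, an identity of 99.5%. Bases 322 to 441 of the coding sequence hold both mismatches, which are in capitals here.
Ppp1r14b: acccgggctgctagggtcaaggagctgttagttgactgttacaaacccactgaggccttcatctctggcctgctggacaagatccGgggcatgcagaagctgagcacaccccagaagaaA
Gm7332: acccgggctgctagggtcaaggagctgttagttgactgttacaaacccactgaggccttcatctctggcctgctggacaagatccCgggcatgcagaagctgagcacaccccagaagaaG
Gm7332 has no row in the table, and no source used here says how its reads were divided from those of Ppp1r14b, so the TPM of Ppp1r14b may hold reads of both. The same search found 2.03% of E2f1 windows in other genes, 1.54% of Mafg windows in Sirt7, whose exons overlap those of Mafg on the same strand by 124 bases, and 0% for Acvr2b and Unc13d. Ppp1r14b also overlaps Plcb3 on the opposite strand, by 22 exonic bases, and the strand setting of the counting is not given.

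The libraries were unequal, which touches every value below. The median gene stood between 27.7 and 67.2 TPM, lowest in IP 1 and in Input 3 (31.1). The 10 most abundant genes held 36.9% of the listed TPM in IP 1 and 51.9% in Input 3, against 6.03% to 24.5% in the other 4 libraries. The tag's own gene, Rpl10a, had 365 to 559 TPM in IP and 36.2 to 117 in Input. Values relative to the median gene are therefore given beside TPM, as log2(TPM + 1) minus the median of that quantity in the same library. No value in the table is under 7 TPM, so a gene below that level in any library is not listed. All 8 genes of the list for the tag and the region had values. Of these, 5 (Rpl10a, Calca, Chat, Isl1 and Prph) had all IP above all Input in TPM, where 1.70% of all genes did. Chat, of cholinergic neurons, had 42.5 to 114 TPM in IP and 34.7 to 40.1 in Input. Slc18a3, of the same neurons, had 132 to 215 TPM in IP and 43.1 to 176 in Input. Its groups overlap, with the highest Input value in Input 3. The neuropeptide genes Cartpt and Ucn of the same list were on average lower in IP, with 917 against 1807 TPM and 220 against 381 TPM, and their groups overlap. Input 3 had less of both than any IP library, at 415 and 86.2 TPM, so the lower mean in IP rests on Inputs 1 and 2.

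**Figure D1:**
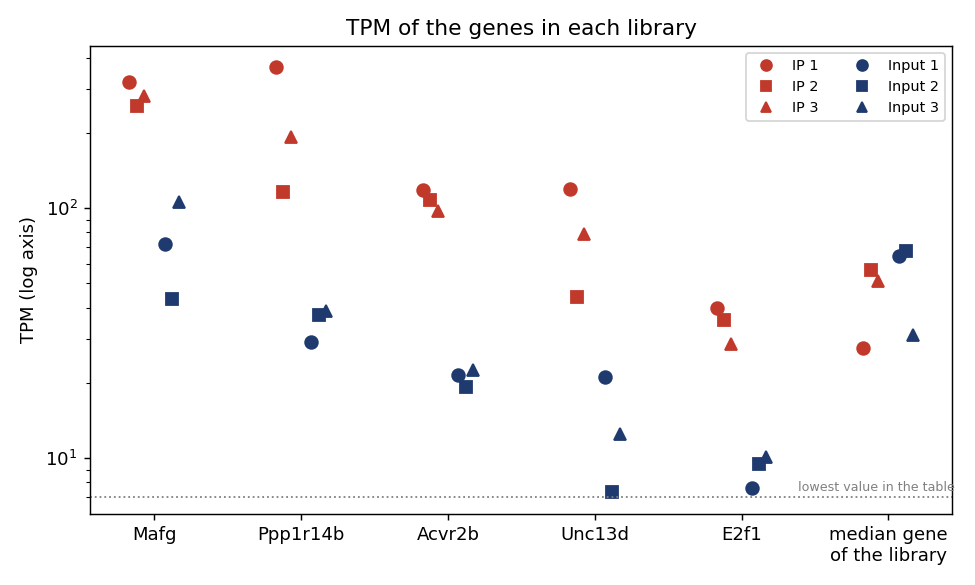
TPM on a log axis (vertical) of the 5 genes and of the median gene of each library (horizontal), red for IP and dark blue for Input; the replicate number sets the marker (circle 1, square 2, triangle 3). All IP points of each gene lie above all its Input points, Unc13d in Input 2 (7.30 TPM) is close to the lowest value in the table (dotted line), and the median gene is lowest in IP 1 and Input 3.

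Acvr2b, the activin receptor (chromosome 9, 119402118 to 119434995 on mm10), had 118, 108 and 97.5 TPM in the IP libraries 1 to 3, and 21.6, 19.3 and 22.6 TPM in Inputs 1, 2 and 3. Both groups were tight, with coefficients of variation of 9.63% in IP and 7.98% in Input, and the lowest IP value was 4.32 times the highest Input value. That is the widest gap of any gene in the table. The IP mean was 108 ± 10.4 TPM and the Input mean 21.1 ± 1.69 (here and below SD, n = 3), a ratio of 5.10. Input 3 had 22.6 TPM of Acvr2b, close to the other Inputs, although its median gene was less than that of either. Relative to the median gene Acvr2b stood at 2.06, 0.92 and 0.92 log2 units in IP and at -1.53, -1.75 and -0.44 in Input. On that scale IP 1 and Input 3 were each the highest of their group, and the groups were 1.36 apart.

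E2f1, the replication factor (chromosome 2, 154559407 to 154569892), was the least abundant of the 5, with 39.9, 35.8 and 28.5 TPM in IP and 7.58, 9.47 and 10.1 TPM in Input. The values within each group lay close together (34.7 ± 5.77 TPM in IP, 9.04 ± 1.30 in Input), and the lowest IP value was 2.83 times the highest Input value. In Inputs 1 and 2 it was among the least abundant genes listed, at the 0.144 and 0.451 percentile of the library. In Input 3 it stood at the 7.56 percentile and in the IP libraries between the 25 and 61.6 percentile. Against the median gene it lay at 0.51, -0.64 and -0.82 in IP and at -2.93, -2.70 and -1.53 in Input. E2f1 was thus above the median gene in IP 1 alone.

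Ppp1r14b, the phosphatase inhibitor (chromosome 19, 6974968 to 6977324), is the first gene listed in the table. It measured 366, 116 and 192 TPM (IP 1 to 3) and 29.2, 37.4 and 38.9 TPM (Inputs 1 to 3). The Input libraries were alike (35.2 ± 5.22 TPM), while the IP libraries were far apart (225 ± 128 TPM), IP 1 being the highest. The ratio of means was 6.39, and the lowest IP value was 2.97 times the highest Input value. Relative to the median gene it lay at 3.68, 1.02 and 1.90 in IP and at -1.11, -0.83 and 0.32 in Input, so that in Input 3 it was above the median gene.

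Unc13d, the vesicle-priming factor (chromosome 11, 116062095 to 116077961), stood at 120, 44.1 and 79.0 TPM across IP 1 to 3 and at 21.1, 7.30 and 12.45 TPM across Inputs 1 to 3. It was the most variable of the 5 in Input, with a coefficient of variation of 51.2%, and varied by 46.8% in IP. The ratio of means was 5.95, but single IP libraries had from 2.09 to 16.4 times the TPM of single Input libraries. Its highest Input value in TPM was in Input 1 and not in Input 3. Against the median gene it stood at 2.08, -0.35 and 0.62 in IP and at -1.56, -3.04 and -1.25 in Input, where Input 3 was the highest Input. Markers of blood and lymphocytes had values for 3 of 14 listed genes, the globin genes Hba-a1 and Hbb-bs, and Coro1a. Their summed level was 93.8 to 329 TPM in IP and 75.3 to 1058 in Input. The highest sum, in Input 2, was mostly globin, with 233 TPM of Hba-a1 and 699 of Hbb-bs against 125 of Coro1a. Ptprc, the pan-leukocyte marker, Cd3e and the granulocyte genes S100a8 and S100a9 are not listed. Of 12 endothelial and mural markers, Ly6c1 and Ly6a were listed, with a sum of 93.3 to 453 TPM in IP and 32.1 to 78.4 in Input. Ly6c1 had all IP above all Input in TPM, where 1.70% of all genes did, and the groups of Ly6a overlap. Ly6c1 was called higher without IP 1 and Input 3 (log2 2.22, limma adjusted p = 0.0343), a fit that called 3.38% of all genes higher. Astrocyte markers had values for 5 of 10 genes, with a sum of 261 to 480 TPM in IP and 230 to 851 in Input. Ntsr2 and Agt of that list were called lower in the same fit (log2 -1.23 and -1.24, limma adjusted p = 0.00628 and 0.0247), as were 2.89% of all genes. In the omitted Input 3 both were lower than in any IP library, at 10.4 and 11.9 TPM. Gfap, S100b and Glul, the other astrocyte markers with values, were not called in that fit (log2 -0.03, 0.01 and -0.58). Gfap was highest of all libraries in Input 3, at 67.3 TPM. Markers of oligodendrocytes and their precursors had values for 5 of 11, with a sum of 357 to 4390 TPM in IP and 528 to 4770 in Input, and those of ependymal cells for 0 of 5. The part of these cells in the values was not tested, and in bulk RNA fewer cells of a type and less RNA per cell cannot be told apart.

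Mafg, the small MAF protein (chromosome 11, 120625117 to 120633600), was the most abundant on average, with 319, 256 and 281 TPM in IP and 71.7, 43.2 and 106 TPM in Input. The IP libraries were close (285 ± 31.7 TPM) and the Inputs were not (73.7 ± 31.5 TPM), with Input 3 the highest. The ratio of means was 3.87 and the lowest IP value was 2.41 times the highest Input value. Relative to the median gene it stood at 3.48, 2.16 and 2.44 in IP and at 0.15, -0.62 and 1.74 in Input. Input 3 was then 0.42 log2 units below the lowest IP library, the smallest distance among the 5. In rank, Mafg was at the 85.5 percentile in Input 3 and between the 90.6 and 93.8 percentile in IP, against 54.3 and 31.3 in Inputs 1 and 2.

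**Figure D2:**
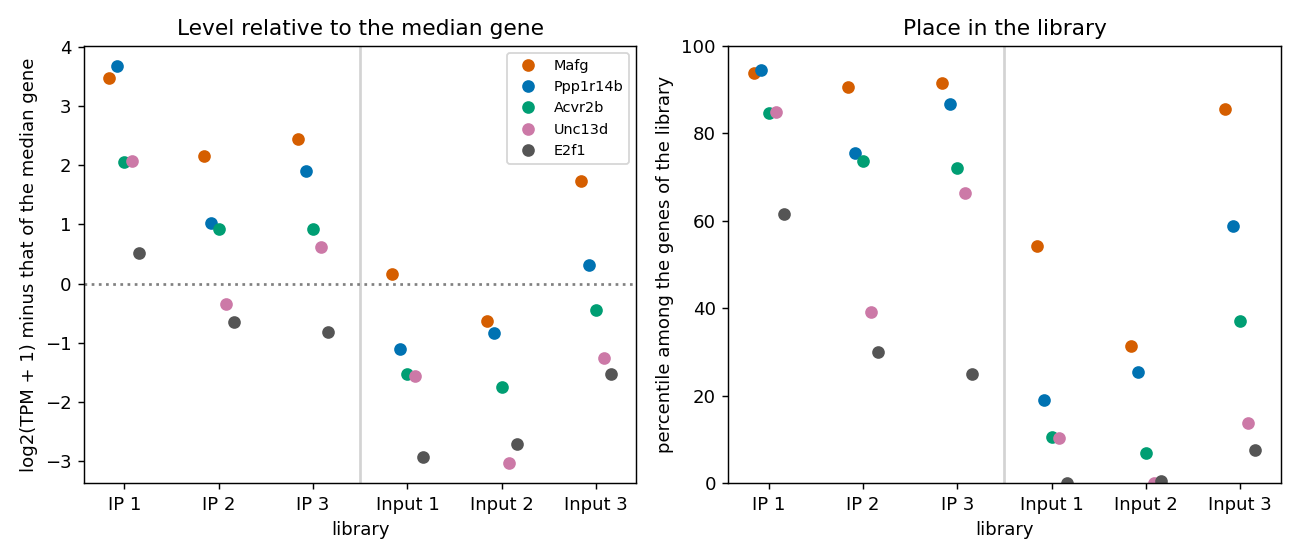
Level of the 5 genes in each library (horizontal) as log2(TPM + 1) minus that of the median gene (left) and as percentile among the 5538 genes of the library (right), 1 point per gene and library. Points of IP 1 are highest among the IP libraries and points of Input 3 highest among the Input libraries for all 5 genes in the left panel, and Mafg in Input 3 reaches the 85.5 percentile.

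The order of abundance by mean was the same in both groups, from Mafg through Ppp1r14b, Acvr2b and Unc13d to E2f1. TPM is scaled by transcript length, so levels of different genes can be set side by side. Within libraries the neighbours in this order were not always apart. Mafg exceeded Ppp1r14b in 5 of 6 libraries, Acvr2b exceeded Unc13d in 5 of 6 and Unc13d exceeded E2f1 in 5 of 6, whereas Ppp1r14b exceeded Acvr2b in all 6. Ppp1r14b and Acvr2b had 116 and 108 TPM in IP 2, close together. In IP 1, Unc13d (120 TPM) and Acvr2b (118 TPM) were level.

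Among all 5538 genes, 1.70% had every IP value above every Input value in TPM and 6.21% every IP value below. Against the median gene the shares were 6.93% and 9.71%. The 5 genes were drawn from the first of these sets, and all 5 also kept the groups apart relative to the median gene. By the ratio of the lowest IP to the highest Input TPM, Acvr2b ranked 1, Ppp1r14b 4, E2f1 5, Mafg 7 and Unc13d 12 in the table. Relative to the median gene Acvr2b ranked 2, Unc13d 9, E2f1 14, Ppp1r14b 16 and Mafg 48. At the edge of the separation, Il15ra and Cd24a were just inside (ratios of 1.01 each), Them6 had its lowest IP equal to its highest Input value, 16.6 TPM, and Senp3 was just outside (40.3 against 40.4 TPM). In limma, a linear model fitted to all 5538 genes, the adjusted p passed 0.05 for 0 genes higher in IP (0%) and 0 genes lower (0%), while 53 and 53 had an unadjusted p under 0.05. When IP 1 and Input 3 were left out and levels were taken relative to the median gene, which leaves 2 libraries a group, limma called 187 higher (3.38%) and 160 lower (2.89%). Without the adjustment to the median gene the same libraries gave 121 higher and 936 lower, so the balance of directions rests on the scale; calls without these libraries are given below on the adjusted scale.

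**Figure D3:**
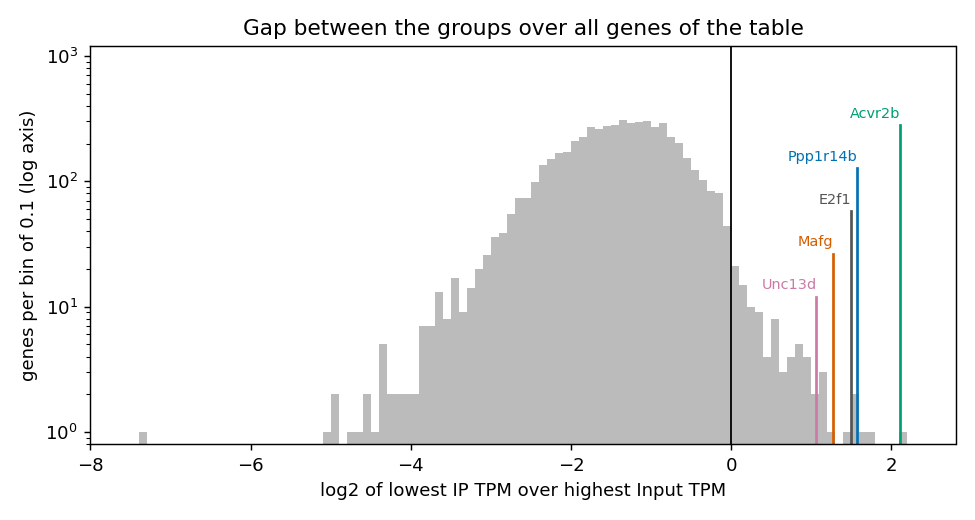
Number of genes (vertical, log axis) by the log2 ratio of the lowest IP to the highest Input TPM (horizontal) over 5538 genes, with coloured lines at the 5 genes (their heights only separate the names) and a black line at equality. The 1.70% of genes right of the black line have groups that do not overlap, and Acvr2b lies farthest right.

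The position of Input 3 depended on the scale. In TPM it was the highest Input in 4 of the 5 genes, Unc13d being the exception, and over all genes it was the highest Input in 7.51%. Against the median gene it was the highest Input in all 5, and over all genes in 45.0%. On that scale it exceeded the mean of Inputs 1 and 2 by 1.20 log2 units for Acvr2b, 1.28 for E2f1, 1.29 for Ppp1r14b, 1.05 for Unc13d and 1.98 for Mafg. The median gene of this shift lay at 0.01, with a middle range of -0.49 to 0.53, and the 5 genes stood between its 90.0 and 98.0 percentile. IP 1 was the highest IP library in all 5, in TPM and relative to the median gene, where over all genes it was the highest in 12.2% and 47.1%. The choice of the 5 asked for a high TPM in IP 1, where the median gene was lowest, and so by itself favoured genes high there. Shares and percentiles over all genes are thus no fair background for the 5, and other genes that meet the same rule were not compared. The excess of IP 1 over the mean of IP 2 and IP 3, relative to the median gene, was 1.14 for Acvr2b, 1.24 for E2f1, 2.22 for Ppp1r14b, 1.94 for Unc13d and 1.18 for Mafg. Relative to the median gene, the libraries that stood apart in composition were thus the highest of their own group for these genes.

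The mean difference between IP and Input, relative to the median gene, was 2.54 log2 units for Acvr2b, 2.07 for E2f1, 2.74 for Ppp1r14b, 2.73 for Unc13d and 2.27 for Mafg. The spread between replicates on that scale was an SD of 0.66 in IP and 0.70 in Input for Acvr2b, 0.72 and 0.75 for E2f1, 1.35 and 0.76 for Ppp1r14b, 1.22 and 0.95 for Unc13d, and 0.70 and 1.21 for Mafg. With IP 1 left out the differences were 2.16, 1.66, 2.0, 2.09 and 1.88 in the same order. With Input 3 left out they were 2.94, 2.5, 3.17, 3.08 and 2.93. With both left out, a choice made after the data were seen, they came to 2.56, 2.09, 2.43, 2.44 and 2.53. There Acvr2b and E2f1 stayed closest to their values with all libraries.

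**Figure D4:**
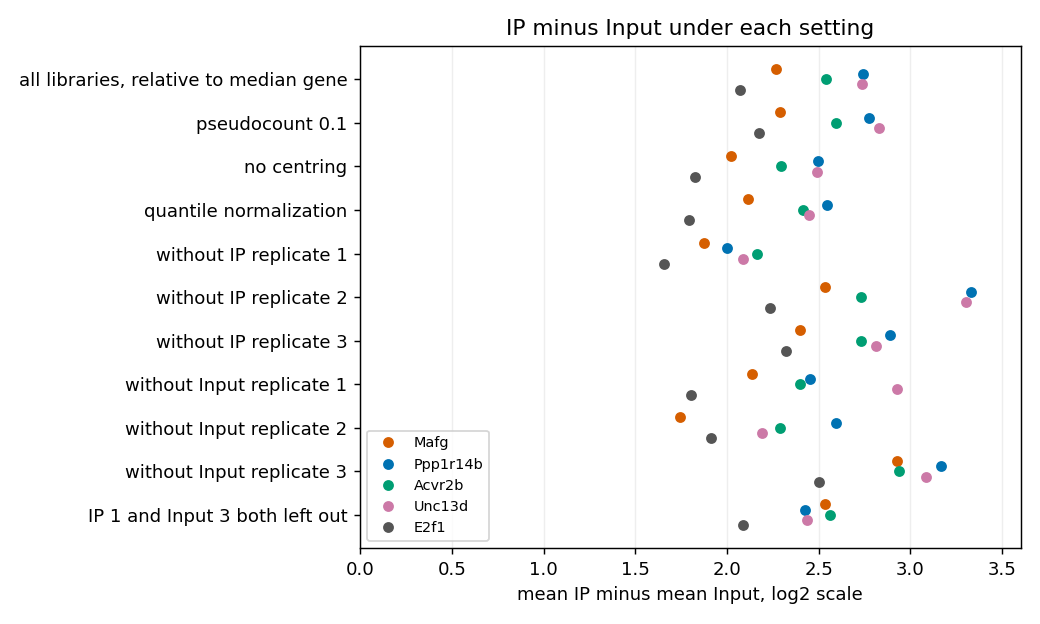
Mean IP minus mean Input on the log2 scale (horizontal) of the 5 genes under each setting (vertical), relative to the median gene except where the label says no centring or quantile normalization. All points lie between 1.66 and 3.33, and the genes lie closest to each other without both IP 1 and Input 3.

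All 5 genes were richer in G and C than the median gene, a property that the choice did not use. The longest annotated transcript held 54.4% G and C in Acvr2b, 58.3% in E2f1, 65.8% in Ppp1r14b, 58.8% in Unc13d and 54.9% in Mafg, where the median over 5534 genes with a transcript was 50.8%. These are the 71.3, 90.9, 99.9, 92.5 and 74.0 percentile. Lengths ranged from 999 bases in Ppp1r14b to 4923 in Mafg, around a median of 2793. Over all genes the difference between IP and Input went with G and C content. Its median was -0.31 log2 units in the poorest of 10 bins of genes and 0.21 in the richest, and Pearson's r was 0.30 across 5534 genes, which share the 6 libraries and are not independent. In the richest bin, which holds E2f1, Ppp1r14b and Unc13d, 4.33% of genes had all IP above all Input in TPM, and in bin 8, which holds Acvr2b and Mafg, 2.71% did. Without IP 1 and Input 3 the medians of the poorest and richest bin were -0.15 and 0.09, and r was 0.10. The part of base composition in the values of the 5 genes was not tested.

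**Figure D5:**
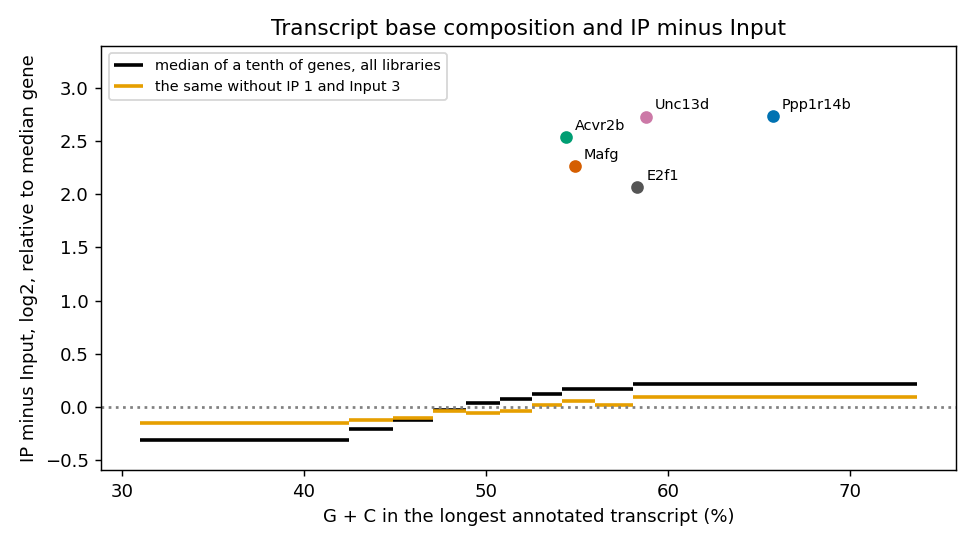
IP minus Input relative to the median gene (vertical, log2) against the G and C content of the longest annotated transcript (horizontal, percent), with a point for each of the 5 genes and bars for the medians of 10 bins of all genes, black with all libraries and orange without IP 1 and Input 3. The bars rise from -0.31 to 0.21 in black and from -0.15 to 0.09 in orange, and the 5 genes lie at 2.07 or above.

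The other genes of the 5 pathways were taken from lists with 199 entries, of which 57 had values. Over all genes tested, limma called 0 of the 57 higher and 0 lower in IP, where it called 0% of all genes in either direction, and every gene named from these lists had an adjusted p of 0.999. In TPM, 0 of the 57 had all IP above all Input and 1, Vamp2, had all IP below, where 1.70% and 6.21% of all genes did. Set against the median gene, 4 were above and 5 below (7.02% and 8.77%), close to the 6.93% and 9.71% of all genes. Of 16 paralogs of the 5 genes, 3 had values (E2f4, E2f6 and Mafk). Acvr2a, Unc13a and the other inhibitors of the Ppp1r14 family were among those not listed.

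Of 53 genes of activin, BMP and TGF-beta signalling, 2 had values, both targets of the pathway. Id2, an inhibitor of DNA binding by other factors, had 7.43, 91.3 and 103 TPM in the IP libraries against 90.5, 119 and 172 in the Inputs. Id3, of the same family, measured 18.2, 77.1 and 27.3 TPM (IP 1 to 3) and 31.1, 38.3 and 20.4 TPM (Inputs 1 to 3). The groups overlap in both genes, and IP 1 has the least of each. No ligand, other receptor or SMAD of this list is in the table beside Acvr2b.

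Of 48 genes of the E2F and RB pathway, 11 had values, with a median IP minus Input of 0.26 relative to the median gene, against 0.02 over all genes. E2f4, an E2F known mainly as a repressor, stood at 30.8, 23.1 and 21.4 TPM across IP 1 to 3 and at 17.1, 29.7 and 22.0 TPM across Inputs 1 to 3. E2f6, a repressor that does not bind RB, had 38.0, 73.0 and 65.5 TPM in the IP libraries against 52.2, 68.5 and 17.8 in the Inputs. In TPM the groups of both overlap. On the scale of the median gene those of E2f4 still overlap, while E2f6 had all IP above all Input, by 0.33 log2 units. Cdk4, the kinase that acts with D cyclins on RB, averaged 136 ± 25.4 TPM (IP) and 108 ± 13.7 TPM (Input). Ccnd2, a D cyclin, reached 1590, 789 and 840 TPM in IP and 1737 in Input 3, against 15.5 and 18.0 in the remaining Inputs. It was called higher without IP 1 and Input 3 (log2 5.81, limma adjusted p = 1.9e-07), although Input 3, left out there, had more of it than any IP library. Ccnd3 averaged 54.8 ± 13.7 TPM (IP) and 65.4 ± 26.6 TPM (Input), and Cdkn2d, a kinase inhibitor, 104 ± 29.2 and 155 ± 67.4. Of the targets used to mark dividing cells, Pcna and Mcm7 had values and Mki67 and Top2a are not listed.

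Of 34 genes of protein phosphatase 1 and myosin, 19 had values, with a median difference of 0.06. The catalytic subunits Ppp1ca and Ppp1cc averaged 202 ± 61.9 and 237 ± 88.6 TPM (IP) and 341 ± 132 and 210 ± 113 TPM (Input). Ppp1r11, another inhibitor of the phosphatase, measured 222, 143 and 185 TPM (IP 1 to 3) and 300.0, 226 and 111 TPM (Inputs 1 to 3). The myosin light chains Myl6 and Myl12b averaged 680 ± 108 and 617 ± 113 TPM (IP) and 784 ± 482 and 756 ± 331 TPM (Input). All of these overlap in TPM. On the scale of the median gene the light chains and Ppp1r11 still overlap, but Ppp1cc had all IP above all Input, by 0.15 log2 units, and Ppp1ca had all IP below. Of the 19 genes of this list, 2 were above and 3 below on that scale, where 6.93% and 9.71% of all genes were. Counts this small say little about the list.

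Of 35 genes of regulated exocytosis, 11 had values, with a median difference of 0.02. Baiap3, a relative of Munc13 proteins, stood at 22.7, 136 and 120 TPM across IP 1 to 3 and at 156, 148 and 24.3 TPM across Inputs 1 to 3. Vamp2, the SNARE of synaptic vesicles, had 107, 340 and 348 TPM in the IP libraries against 790, 753 and 515 in the Inputs, and was one of the 2 genes of this list called lower without IP 1 and Input 3 (log2 -0.88, limma adjusted p = 0.0281), a fit that called 2.89% of all genes lower. The other was Stx4a (log2 -1.63, adjusted p = 0.00341), with 25.5 TPM in Input 3, within the range of the IP libraries. Snap25, which works with Vamp2 in fusion, averaged 2144 ± 971 TPM (IP) and 2951 ± 433 TPM (Input). Rab27a, the partner of Unc13d, is not listed.

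Of 29 MAF, CNC and antioxidant genes, 14 had values, with a median difference of -0.02. Mafk, a small MAF like Mafg, measured 7.77, 16.5 and 10.8 TPM (IP 1 to 3) and 12.04, 10.3 and 12.1 TPM (Inputs 1 to 3), and its groups overlap. Fth1, the heavy chain of the iron store ferritin, stood at 1801, 2386 and 2512 TPM across IP 1 to 3 and at 4676, 5596 and 1408 TPM across Inputs 1 to 3. Ftl1, the light chain, had 8686, 2931 and 4335 TPM in the IP libraries against 861, 1229 and 8957 in the Inputs. The ferritin chains thus differed in direction against Inputs 1 and 2, and Input 3 was outside the range of the IP libraries for both. Without IP 1 and Input 3, Ftl1 was called higher (log2 2.08, limma adjusted p = 0.00373), and Fth1, Gstm1 and Prdx1 lower (log2 -0.78, -0.92 and -0.94), where the fit called 3.38% of all genes higher and 2.89% lower. In the omitted Input 3, Prdx1 had 118 TPM, below every IP library, and Gstm1 had 95.4 TPM, within the range of the IP libraries. Gstm1 and Prdx1, a glutathione transferase and a peroxiredoxin, averaged 191 ± 97.9 and 255 ± 56.2 TPM (IP) and 416 ± 283 and 485 ± 321 TPM (Input). Gsta4, another transferase, had 95.4 ± 36.6 and 175 ± 115 TPM.

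For each of the 5, the nearest listed gene on either side was taken, 10 genes in all. In TPM 0 of the 10 had all IP above all Input, where 1.70% of all genes did, so that a count of 0 says little about them. On the scale of the median gene 3 did, against 6.93% of all genes: Necab3 by 0.52 log2 units, Aspscr1 by 0.13 and Acaa1a by 0.03. Necab3, which lies 516 bases from E2f1, measured 53.1, 106 and 94.0 TPM (IP 1 to 3) and 61.4, 74.4 and 39.8 TPM (Inputs 1 to 3). Fkbp2, 416 bases from Ppp1r14b, stood at 169, 184 and 191 TPM across IP 1 to 3 and at 357, 410 and 74.1 TPM across Inputs 1 to 3. Wbp2, 611 bases from Unc13d, had 382, 673 and 595 TPM in the IP libraries against 775, 778 and 413 in the Inputs. Sirt7, which overlaps Mafg, measured 18.6, 28.8 and 17.1 TPM (IP 1 to 3) and 8.21, 18.6 and 18.9 TPM (Inputs 1 to 3). Exog, 9947 bases from Acvr2b, stood at 22.7, 27.3 and 25.4 TPM across IP 1 to 3 and at 19.1, 23.8 and 25.6 TPM across Inputs 1 to 3. All of the 10 had a limma adjusted p of 0.999.

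Likeness was measured as Pearson's r of the level relative to the median gene over the 6 libraries, against 5274 genes without predicted models, Rik names and pseudogenes. All genes share the median of each library in this measure, and 6 points give high r to many genes, so the values describe these libraries only. Nearest to Acvr2b were Calca (r = 0.995), Ybx3 (0.993) and Gal (0.988). Nearest to E2f1 were Ybx3 (0.997), Calca (0.994) and Pip5kl1 (0.992). Calca and Gal encode neuropeptides and Ybx3 a DNA- and RNA-binding protein. Ybx3 had 147, 124 and 117 TPM in the IP libraries against 29.6, 35.5 and 35.0 in the Inputs. Nearest to Ppp1r14b were Esrra (0.998), Fam131c (0.996) and Atxn7l3 (0.986). Unc13d was nearest to Gng13 (0.988), Bysl (0.978) and Mtch2 (0.964), and Mafg to Snph (0.997), Gls2 (0.992) and Adamtsl5 (0.979). Of the 3 genes nearest to Unc13d, 0 had all IP above all Input in TPM (1.70% of all genes did). On the scale of the median gene 2 did, Gng13 by 0.15 and Bysl by 0.13 log2 units, where 6.93% of all genes did. For Acvr2b, E2f1, Ppp1r14b and Mafg, 3, 3, 2 and 1 of the 3 nearest did so in TPM, and all 3 of each relative to the median gene. Genes picked for likeness to a gene with separate groups tend to have separate groups, so these counts are a description only. In TPM the groups of Gng13 overlapped with 117 to 191 TPM in IP and 86.0 to 157 in Input. An r over 0.95 was reached by 29 genes for Acvr2b, 51 for E2f1, 29 for Ppp1r14b, 8 for Unc13d and 27 for Mafg.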

How the data were processed

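The authors deposited 1 table of TPM for 6 libraries, as its header line states. RSEM, DESeq and mm10 are named in the submitters' processing notes, with no versions or roles, and no source used here names an aligner. All 6 columns of values were used (0 others) and depth is unknown. The p-values set the difference of the groups against the spread between libraries, each made from a pool of mice. That spread also holds any variation of the pull-down and of library composition, which cannot be told apart from that of the pools. TPM were transformed to log2(TPM + 1), with no filter on low values. IP and Input were compared across all genes with limma 3.58.1 in R 4.3.3 (group as the only term, variance trend, Benjamini-Hochberg adjustment, threshold 0.05). The fit was tried on simulated data with independent noise, less spread than the 5 genes have and no shifts between libraries. That trial does not show how the fit performs on libraries as unequal as these. A single gene compared by exact permutation could reach no less than p = 0.1. The 5 genes and the gene lists were chosen with earlier results of these data known. Named genes are the 5, the 5 most abundant listed genes and any paralog in each pathway list, the 3 most alike and the nearest neighbours of each gene, the tag's gene and genes at the edge of the separation; Stx4a, Pcna, Mcm7, Gpr137 and the marker genes were added after their values were seen. Some genes that this rule takes, and 1 marker list, are not reported here. Positions, transcripts and overlaps come from GENCODE mouse release 21 on GRCm38 (mm10), and start windows from RefSeq. Alternatives were a pseudocount of 0.1, centring, quantile normalization, a mean TPM of at least 20, no variance trend, a block for the replicate number, and each library left out in turn.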

Additional observations from a re-analysis of the deposited data

How the results depend on the processing

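For the 5 genes, all 50 alternative values of IP minus Input kept their direction and moved by less than 1 SD between replicates. Leaving out 1 of 3 libraries in a group cannot move the difference by that much, so those alternatives could not fail this limit. They ranged from 2.16 to 2.94 for Acvr2b, 1.66 to 2.5 for E2f1, 2.0 to 3.33 for Ppp1r14b, 2.09 to 3.30 for Unc13d and 1.75 to 2.93 for Mafg; the direction is fixed by how they were chosen. Over all genes, limma called 0 higher and 0 lower with a pseudocount of 0.1, centred libraries, quantile normalization, a mean TPM of at least 20 or no variance trend. Leaving out one library gave 0 to 19 higher and 0 to 2 lower, the highest without Input 3 (1 and 1 without Input 1). Leaving out IP 1 and Input 3 gave 121 higher and 936 lower, and 187 and 160 with centred libraries. Genes with all IP above all Input numbered 94, or 384 with centred libraries, 350 with quantile normalization, 133 to 371 with one library left out (371 without IP 1, 180 without IP 2, 203 without Input 2, 200 without Input 3), and 501 or, centred, 1393 without IP 1 and Input 3. Genes with all IP below numbered 344, or 538, 612, 364 to 2942 (565 without IP 2, 2942 without Input 3), 3124 and 1745, in the same order. Fewer libraries make separation easier by construction; for the rest the cause was not tested. With the replicate number as a block, limma called 13 higher and 0 lower. Deviations of same-numbered libraries correlated at -0.10, 0.25 and -0.17, and IP 1 and IP 3 did not correlate best with their own number. These values include IP 1 and Input 3, which stood apart, so they cannot decide whether equal numbers mark the same pool of mice. The main fit took no pairs. Depth is unknown, so its limits cannot be stated.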

Other observations

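Esrra, the gene most like Ppp1r14b over the 6 libraries, lies on the same chromosome, 53154 bases before it (chromosome 19, 6910977 to 6921813). Esrra encodes a nuclear receptor that controls genes of energy metabolism. It measured 62.2, 53.0 and 58.2 TPM (IP 1 to 3) and 28.7, 33.8 and 22.3 TPM (Inputs 1 to 3), so its groups do not overlap either. There are 2 listed genes between them. Bad measured 53.2, 45.0 and 52.5 TPM (IP 1 to 3) and 67.0, 83.9 and 38.7 TPM (Inputs 1 to 3), and Gpr137 measured 58.5, 82.0 and 67.0 TPM and 76.0, 75.2 and 37.5 TPM. The groups of both overlap in TPM, as do those of Fkbp2 on the other side of Ppp1r14b. The pair was picked out after its values were seen, and no test of position was made.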
